A study of Mus musculus with 40 samples.

Results

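The nuclear genes of respiratory complexes II to V were defined as the protein-coding genes of the count tables named Sdha, Sdhb, Sdhc, Sdhd or Cyc1 or having a symbol that starts with Uqcr, with Cox4 through Cox8, or with Atp5. This rule found 48 of 47643 genes, of which 4 belong to complex II, 9 to complex III, 18 to complex IV and 17 to complex V. The samples were wild-type Swiss Webster mice, bred germ-free, described in the methods as females of 6 to 8 weeks, and fed a vitamin- and mineral-matched control diet. Each cohort received by gavage the stool of 1 of 10 children with refractory epilepsy, taken before (pre-KD) or after the start (post-KD) of a clinical ketogenic diet, so that the mice themselves never ate that diet. Hippocampus and frontal cortex were dissected 4 days after colonization and pooled from 6 mice per cohort, which gives 10 libraries for each region and condition, each the pool of 1 cohort and not 1 animal. The comparisons asked whether these transcripts differed between post-KD and pre-KD recipients within a region, and between the regions of a cohort.

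Complex II, or succinate dehydrogenase, passes electrons from succinate to ubiquinone and is encoded by nuclear genes alone. Complex III passes them on to cytochrome c and complex IV hands them to oxygen, and both pump protons that complex V, the ATP synthase, uses to make ATP. Complexes III, IV and V join nuclear subunits to a core encoded in mitochondrial DNA, and neurons depend on them for the ATP that ion pumping and transmitter release consume. Nuclear respiratory factor 1 (NRF1), the ETS factor GABP and YY1 are known regulators of many of these genes.

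The promoters of the family were examined for the binding motifs of those factors, because the factors are known to act through them. A RefSeq promoter (250 bases before to 50 bases after a start, build GRCm38.p6) was matched by gene for 36 of the 48 members. The NRF1 motif, 10 bases long with an open sixth position and searched on both strands as were the others, was present in 10 of the 36 members, or 27.8%, and in 7.17% of 17492 coding genes with a promoter. The ETS core CCGGAAG was present in 12 members (33.3%, against 12.9% of coding genes), and the YY1 motif AAGATGGC in 3 members (8.33%, against 3.57%). At least 1 of the motifs was found in 20 members, the shares are a description of letters and not of binding, and none of the motifs overlapped another in the members shown. Sdha, the flavoprotein subunit of complex II, is shown because it held the most NRF1 matches of any member, starting 98, 55 and 10 bases before its start. Atp5o and Cox7c are shown because the comparisons described further on turn on them. The capitals mark NRF1 matches, and the Cox7c promoter held none of the 3 motifs.
Sdha promoter, chr13:74350191-74350490, minus strand: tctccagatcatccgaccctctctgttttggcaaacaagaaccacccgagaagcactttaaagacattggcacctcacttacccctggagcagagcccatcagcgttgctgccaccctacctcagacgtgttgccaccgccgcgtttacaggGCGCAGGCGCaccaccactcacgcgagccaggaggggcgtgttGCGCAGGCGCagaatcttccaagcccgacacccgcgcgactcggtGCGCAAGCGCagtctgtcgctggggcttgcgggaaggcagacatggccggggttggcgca
Atp5o promoter, chr16:91931581-91931880, minus strand: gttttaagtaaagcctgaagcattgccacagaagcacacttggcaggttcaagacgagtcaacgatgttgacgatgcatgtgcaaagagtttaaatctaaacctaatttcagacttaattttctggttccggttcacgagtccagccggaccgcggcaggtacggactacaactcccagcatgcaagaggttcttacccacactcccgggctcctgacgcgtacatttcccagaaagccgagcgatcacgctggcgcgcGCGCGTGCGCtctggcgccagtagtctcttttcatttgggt
Cox7c promoter, chr13:86046746-86047045, minus strand: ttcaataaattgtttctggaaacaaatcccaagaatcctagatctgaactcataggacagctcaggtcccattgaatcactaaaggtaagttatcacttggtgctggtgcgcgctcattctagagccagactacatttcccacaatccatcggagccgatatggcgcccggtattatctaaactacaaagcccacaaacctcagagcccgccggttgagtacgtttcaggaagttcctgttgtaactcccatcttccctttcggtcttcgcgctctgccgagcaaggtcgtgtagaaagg

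Library totals ranged from 1140756 to 2095352 counts, and the members took 0.647% to 0.998% of them. Levels are given as CPM, a gene's counts scaled to a fixed library total, on a single scale of trimmed-mean-of-M-values (TMM) normalisation over the 40 libraries, and the level of a gene in a group is its median with the lowest and highest library in parentheses. A mean of at least 20 counts per library was reached by 37 members, 9 members lay between 1 and 20, and 2 members lay under 1, namely Cox4i2 with 15 counts in all and Cox8c with 0 in every library. Over the 20 libraries of a region, the coefficient of variation of the 37 better-counted members had a median of 24.7% in hippocampus and 21.2% in frontal cortex, where counting error alone gives a median of 5.77% and 5.51%. The summed level of 9 hippocampal genes, among them Prox1 of the dentate gyrus, was 943 to 1646 CPM in hippocampal and 614 to 1013 CPM in cortical libraries. That of 8 cortical genes was 324 to 752 CPM in hippocampal and 508 to 799 CPM in cortical libraries, so that both lists overlapped between the regions. All 9 hippocampal genes had the higher fitted level in the hippocampus, 6 of them at adjusted p, with a median log2 fold change of 2.01. Of the 8 cortical genes, 5 differed at adjusted p, and 1 of the 5, Fezf2, was higher in the hippocampus (0.88 ± 0.23, adjusted p = 0.00785, edgeR). Against the stated sex, 4 Y-linked genes summed to 79.0 to 179 CPM in all 8 libraries of donors 9 and 10 and to 15.8 CPM in the hippocampal pre-KD library of donor 2, and to at most 2.26 CPM elsewhere. Counts of calls are therefore given also without these 9 libraries.

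Levels were compared between genes per kilobase of the principal protein-coding transcript, and are the mean ± SD over 40 libraries. The highest members were Cox6a1, a small subunit of complex IV, at 897 ± 117 CPM per kb, Atp5k, the membrane subunit e of ATP synthase, at 892 ± 139, and Cox6c, another small complex IV subunit, at 809.6 ± 114. They were followed by Cox8a at 685 ± 129.5 and Atp5g3 at 633 ± 145, and each of these 5 genes differed from the next in order by less than the larger of the 2 SDs. The 4 complex II genes ranked 26, 33, 39 and 40. Their iron-sulfur subunit Sdhb reached 132 ± 35.2 CPM per kb and the flavoprotein Sdha 52.9 ± 13.2, while the membrane anchors Sdhc and Sdhd were at 10.2 ± 4.97 and 9.56 ± 5.70. In complex III the hinge protein gene Uqcrh was highest at 525 ± 119 and the Rieske iron-sulfur protein gene Uqcrfs1 lowest at 39.99 ± 18.2. The lowest members of all were Cox8c at 0, Cox4i2 at 0.311 ± 0.749 and Cox7b2 at 2.31 ± 4.77. Dividing by the union of all annotated exons instead kept Cox6a1 first, put Cox8a at rank 2 and Atp5k at rank 3, and moved Cox6c from rank 3 to rank 15. It left Cox8c, Cox4i2 and Cox7b2 among the 5 lowest. Per-length values assume reads spread over the transcript, and the sources name both a whole-transcript and a 3′ kit. Some members share sequence with other genes, and its part in their levels was not tested. Atp5l, ATP synthase subunit g, at 13.2 ± 11.7, shares 7.04% of its 69-base windows, spread over 120 annotated genes. Atp5g2 shares 36.4% of its windows.

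**Figure D1:**
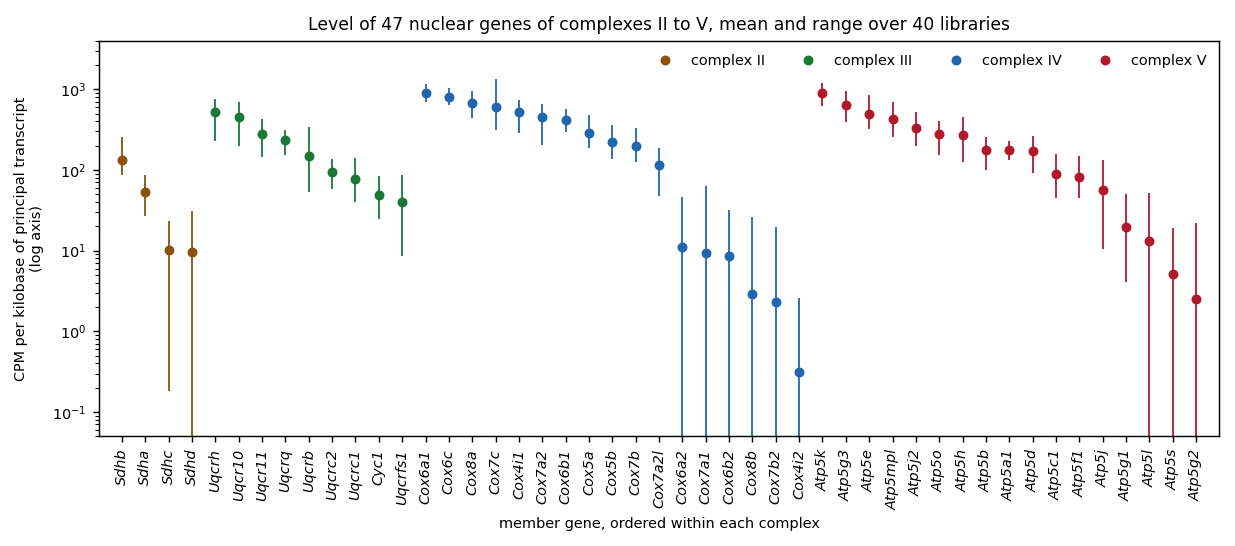
Level of each member in CPM per kilobase of its principal transcript, on a log axis. Points are means and lines span the lowest to the highest of 40 libraries. Lines that run off the bottom reach 0, and Cox8c, at 0 in every library, is left out. The small subunits Cox6a1 and Atp5k lead on this length, and the tissue-restricted complex IV isoforms sit at 11.1 CPM per kb or less. Divided by all annotated exons, Cox8a takes rank 2 and Atp5k rank 3.

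The summed level of the 48 members lay between 7137 and 9665 CPM in the 40 libraries. In the hippocampus it was 8134 ± 569.9 CPM (SD, n = 10) pre-KD and 8287 ± 589 post-KD, and in the frontal cortex 8239 ± 468 and 8631 ± 479. The ratio of the post-KD to the pre-KD mean was 1.02 and 1.048, each closer to 1 than the spread between libraries. Complex II sums were 332 ± 33.8 CPM pre-KD and 332 ± 42.9 post-KD in the hippocampus, and 377 ± 49.5 and 354 ± 51.0 in the frontal cortex. Complex III sums were 1309.7 ± 186 and 1326 ± 168 in the hippocampus, and 1327 ± 115 and 1423 ± 142 in the frontal cortex. All of these group means lay within 1 SD of their counterpart. For complex IV they were 3236 ± 223 and 3403 ± 265 in the hippocampus, and 3354 ± 246 and 3535 ± 216 in the frontal cortex. For complex V they were 3257 ± 302 and 3227 ± 291, and 3180.3 ± 219 and 3318 ± 240.3. The shares of the total were steady, with medians over 40 libraries of 4.17% for complex II (3.32% to 5.54%), 16.5% for complex III (13.2% to 19.5%), 40.7% for complex IV (37.5% to 43.5%) and 39.0% for complex V (35.1% to 42.8%). These sums are descriptions, and in bulk tissue fewer cells of a type and less RNA per cell cannot be told apart.

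**Figure D2:**
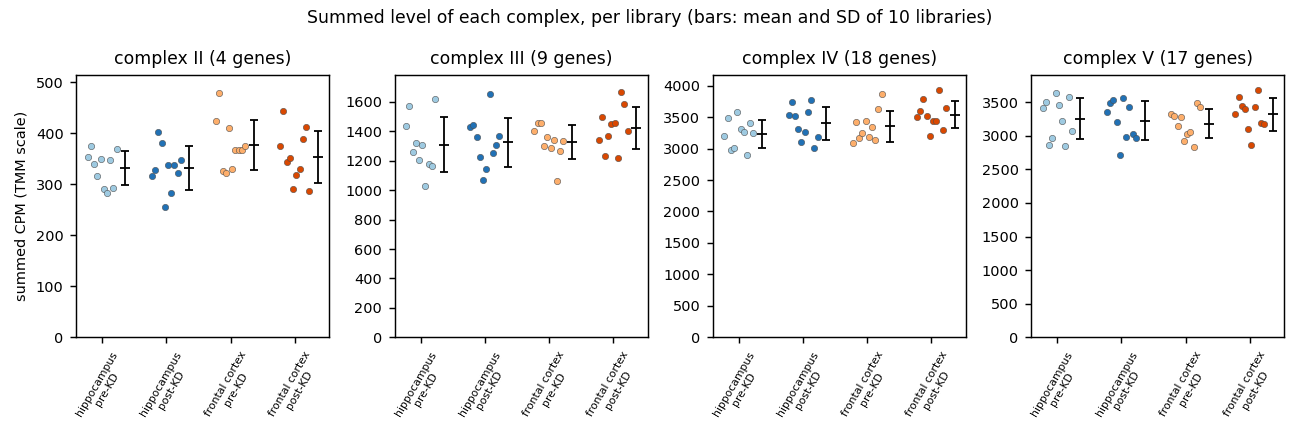
Summed CPM of the members of each complex in every library. Colours are the 4 groups of region and condition, points are libraries and bars beside them are the mean and SD of 10 libraries. The groups overlap in every panel, and complex IV in the frontal cortex runs from 3095 to 3872 pre-KD and from 3206 to 3927 post-KD.

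Post-KD and pre-KD recipients were compared by edgeR's quasi-likelihood test with Benjamini-Hochberg adjustment over all genes. In the hippocampus no member passed at an adjusted p under 0.05 (0.0057% of all genes did, 1 of 17529). At unadjusted p under 0.05, 3 of 46 tested members passed, 1 higher and 2 lower, where 10.1% of all genes did. DESeq2 gave 0 at adjusted p and 5 at unadjusted p, where it called 3.42% of all genes. Among genes with a mean of at least 20 counts the background was 2.57%, and 2 of 37 members of that level passed, namely Atp5o and Cox5b. The third, Cox8b, had a mean under 5 counts, a class in which 28% of genes passed. Marker genes moved with the condition in the hippocampus at unadjusted p and not at adjusted p: Ppp1r1b of the striatal list (-0.64 ± 0.29), Prox1 (-0.57 ± 0.25) and Nefl (-0.29 ± 0.14) were lower post-KD, and Wfs1 (0.79 ± 0.37) and Mog (0.90 ± 0.43) higher. Mog is 1 of 7 oligodendrocyte genes, of which 2 had fold changes above 0 and 5 below (median -0.12), Nefl 1 of 8 neuronal genes, 2 above and 6 below (median -0.09), and Prox1 and Wfs1 are 2 of 9 hippocampal genes, 5 above and 4 below (median 0.15). All 6 striatal genes tested had fold changes below 0, with a median of -0.58. The part of these cells in the members' values was not tested. In the frontal cortex no member passed at an adjusted p (0.0056% of genes did), and 2 of 46 passed at unadjusted p, Cox7c and Atp5o, both higher, against 9.68% of all genes and 4.64% of those with at least 20 counts. DESeq2 gave 0 and 2, with 4.62% of all genes at unadjusted p. Blood genes moved with the condition there: 2 of 4 tested (Hbb-bs and Hba-a1) were higher post-KD at unadjusted p, the summed level of 5 was 390.4 to 1156 CPM pre-KD and 548 to 1390.0 CPM post-KD, and their part in the members' values was not tested. Penk of the striatal list (0.28 ± 0.13) was also higher there at unadjusted p and C1qb of 7 microglial genes lower (-0.98 ± 0.44), and their part was not tested either. Log2 fold changes were above 0 for 28 of 46 members in the hippocampus (49.3% of all genes) with a median of 0.04 (all genes -0.01), and for 32 of 46 in the frontal cortex (50.8% of all genes) with a median of 0.06 (all genes 0.01).

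The 2 groups of 10 libraries overlapped for every member in both regions, as for all genes tested (0% of genes had groups apart). The 95% interval of the fold change had a median half-width of 0.35 on the log2 scale over the 37 better-counted members in hippocampus and 0.27 in frontal cortex. It lay within a doubling or halving for 37 of 37 members in hippocampus and for 36 of 37 in frontal cortex, and within 0.5 on the log2 scale for 21 and 25. Without the 9 libraries with Y-linked counts, 3 members passed at unadjusted p in the hippocampus (Atp5o, Cox8b and Uqcrb) and 7 in the frontal cortex (Atp5o and Cox7c with Atp5g1, Atp5g3, Cox8a and Uqcrb, all higher, and Sdhb, lower), where 9.72% and 9.21% of all genes did, and none at adjusted p.

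**Figure D3:**
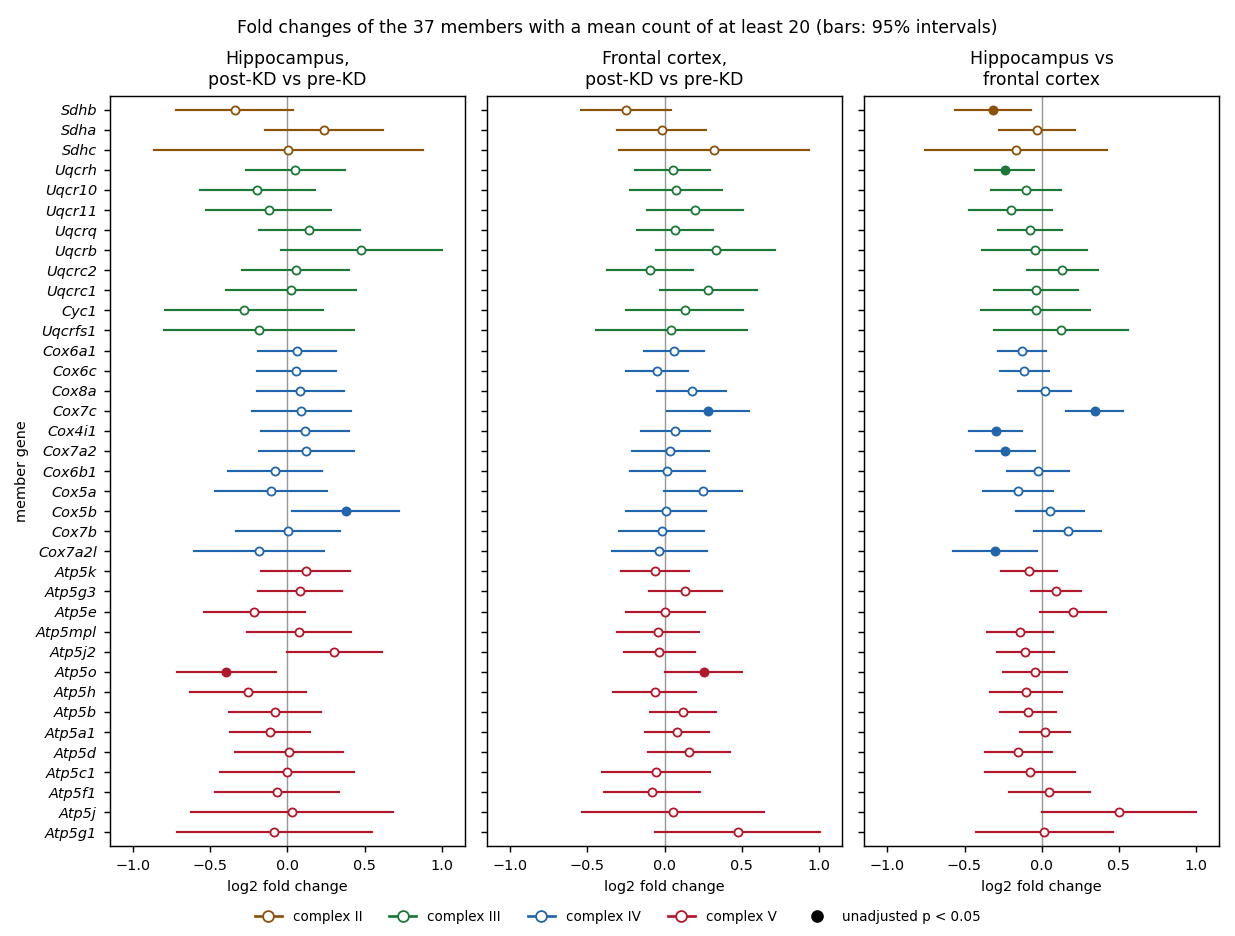
Log2 fold changes of the 37 members with a mean of at least 20 counts, with 95% intervals, for post-KD against pre-KD in each region and for hippocampus against frontal cortex. Filled points have an unadjusted p under 0.05. Atp5o lies at -0.40 in hippocampus and 0.25 in frontal cortex, and Cox7c and Cox4i1 lie on opposite sides of 0 between regions.

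In complex II none of 4 members passed in either region. Sdhb, which carries electrons through its iron-sulfur clusters, was at 143 (99.5 to 203) CPM pre-KD and 121 (101 to 137) CPM post-KD in the hippocampus. In the frontal cortex it was at 175 (116 to 293) CPM and 157 (99.4 to 197) CPM. In each region 8 of 10 donors had the lower level post-KD, with overlapping groups, at a log2 fold change of -0.34 ± 0.19 (SE, unadjusted p = 0.0785, edgeR) and -0.25 ± 0.15 (p = 0.0905). Sdhb passed at unadjusted p with DESeq2 in the hippocampus (-0.33, p = 0.0207), and in 3 of 17 alternatives in the frontal cortex (without donor 4 or 9 or the libraries with Y-linked counts, -0.34 to -0.32), and at adjusted p in none. Both regions came from the same cohorts and are no independent repeats. Sdha was at 148 (79.0 to 236) CPM pre-KD and 159.8 (106 to 250.1) post-KD in the hippocampus, and at 146 (107 to 229) pre-KD and 148 (118 to 195) post-KD in the frontal cortex, with fold changes of 0.24 ± 0.19 and -0.02 ± 0.14. Of the anchors, Sdhd lay under a mean of 20 counts per library and Sdhc above it. Sdhc was at 30.5 (0.577 to 74.1) CPM pre-KD and 32.7 (6.95 to 51.6) post-KD in the hippocampus and at 27.8 (8.52 to 55.4) and 39.8 (16.2 to 53.4) in the frontal cortex (fold changes of 0.01 ± 0.44 and 0.32 ± 0.31). Sdhd was at 11.3 (0 to 25.0) and 10.8 (2.58 to 38.7) CPM in the hippocampus and at 11.1 (3.96 to 22.7) and 11.1 (7.37 to 19.01) CPM in the frontal cortex, in the same order (fold changes of 0.51 ± 0.76 and 0.06 ± 0.53). In the hippocampus the 95% interval of Sdhc ran from -0.87 to 0.88 and that of Sdhd reached up to 2.03 on the log2 scale, so that a doubling of Sdhd was not detectable at this depth.

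None of the 9 members of complex III passed in either region. The core proteins Uqcrc1 and Uqcrc2, which hold the complex together, were at medians of 122 and 140.3 CPM (Uqcrc1) and 178 and 191 CPM (Uqcrc2) pre-KD and post-KD in the hippocampus. Frontal cortical medians were 112 and 131, and 178 and 157. Uqcrc1 had the higher fold change there, 0.28 ± 0.16 (p = 0.0753, and 0.0223 without donor 3), against -0.09 ± 0.14 for Uqcrc2. Of the subunits that carry electrons, cytochrome c1 (Cyc1) was at 79.7 (62.5 to 106) CPM pre-KD and 61.0 (37.7 to 104) post-KD in the hippocampus and at 71.4 (44.3 to 94.6) pre-KD and 78.4 (55.2 to 127) post-KD in the frontal cortex, with fold changes of -0.28 ± 0.26 and 0.13 ± 0.19. Uqcrfs1 was at 55.5 (19.4 to 118) and 52.8 (11.7 to 92.0) CPM in the hippocampus and at 46.2 (29.3 to 103) and 52.0 (17.7 to 93.9) CPM in the frontal cortex, with -0.18 ± 0.31 and 0.04 ± 0.25. Neither gene separated the conditions.

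Among the small subunits of complex III, Uqcrb, which binds ubiquinone near the membrane, had the highest fold changes: 0.48 ± 0.26 in the hippocampus (p = 0.0711) and 0.33 ± 0.19 in the frontal cortex (p = 0.0897). It was at 48.4 (28.7 to 180.1) CPM pre-KD and 102 (52.2 to 121) CPM post-KD in the hippocampus, and at 68.8 (40.7 to 95.2) CPM pre-KD and 87.6 (56.6 to 129) CPM post-KD in the frontal cortex. The highest hippocampal value was a pre-KD library, although the pre-KD median was the lower one and the post-KD level was the higher in 9 of 10 donors (6 of 10 in the frontal cortex), and 18.8% of the 69-base windows of its transcripts occur in other annotated genes. It passed at unadjusted p in 4 of 17 alternatives in the hippocampus, at 0.60 to 0.92, and in 5 of 17 in the frontal cortex, at 0.40 to 0.53, leaving out the libraries with Y-linked counts among them, and at adjusted p in none. With the donor as a block the hippocampal value was 0.65 ± 0.28 (p = 0.0215, adjusted p = 1), in a fit that called 1.99% of all genes at unadjusted p. The hinge protein gene Uqcrh had fold changes of 0.05 ± 0.16 and 0.05 ± 0.12, and Uqcrq 0.14 ± 0.17 and 0.07 ± 0.12. Uqcr10 had -0.19 ± 0.19 and 0.07 ± 0.15, and Uqcr11 -0.12 ± 0.20 and 0.20 ± 0.16. Median levels of these 4 genes were between 113 CPM (Uqcr11, hippocampus pre-KD) and 325 CPM (Uqcrh, frontal cortex post-KD).

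In complex IV, Cox5b, the zinc-binding subunit, was higher post-KD in the hippocampus at unadjusted p. Its levels there were 168 (119.7 to 288) CPM pre-KD and 214 (136 to 314) CPM post-KD, and the post-KD library held the higher level in 7 of 10 donors. The log2 fold change was 0.38 ± 0.17 (p = 0.0327, adjusted p = 0.383, edgeR), and it was 0.01 ± 0.13 in the frontal cortex. The highest pre-KD library (donor 5) stood apart at 288 CPM, and the groups overlapped from 136 to 288 CPM. Leaving out donor 1, 2, 3 or 8 ended the call, at fold changes of 0.30 to 0.34, as did leaving out the libraries with Y-linked counts (0.37, p = 0.0740). Cox7c, a small membrane subunit, was higher post-KD in the frontal cortex at unadjusted p. Its levels there were 235 (171 to 374) CPM pre-KD and 297 (232 to 461) CPM post-KD, higher post-KD for 6 of 10 donors, with a fold change of 0.28 ± 0.13 (p = 0.0396, adjusted p = 0.457, edgeR). The ranges overlapped over most of their length. The call ended without donor 3, 4, 6, 7 or 8 (0.15 to 0.27), with DESeq2 (p = 0.0690) and with edgeR's filterByExpr (p = 0.0605), and in the hippocampus the fold change was 0.09 ± 0.16.

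The isoform pairs of complex IV showed that the ubiquitous forms carried nearly all counts in both regions. Cox4i2, the lung isoform of subunit 4, gave 6 counts in 3 hippocampal and 9 in 4 cortical libraries, all of them pre-KD, and 0 in the 20 post-KD libraries, which is too few for either test under the filter of 10 counts. With no filter on low counts it passed at unadjusted p in both regions, as 14% of all genes then did in each, at -2.50 (p = 0.00505) and -3.03 (p = 0.00226), values that depend on the prior count, and not at adjusted p. Its partner Cox4i1, the largest nuclear subunit, had 10799 counts in hippocampus and 14677 in frontal cortex. The heart and muscle isoforms were sparse. Cox6a2 gave 1.54% of Cox6a counts in hippocampus and 1.41% in frontal cortex, and Cox7a1 1.39% and 1.04% of those of Cox7a1 and Cox7a2. The testis isoform Cox6b2 gave 1.56% and 1.99% of Cox6b counts, and Cox7b2 gave 19 of 6605 Cox7b counts in the hippocampus and 68 of 6477 in the frontal cortex. Over single libraries these shares ran from 0% up to 10.2% (Cox7a1, hippocampus).

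Of the isoforms that are scarce here, Cox8b, the heart and muscle form of subunit 8, passed at unadjusted p in the hippocampus. It had 44 counts in 6 pre-KD and 4 counts in 3 post-KD libraries, or 0.884 (0 to 9.36) against 0 (0 to 1.21) CPM, for a fitted log2 fold change of -3.04 ± 1.51 (p = 0.0468, adjusted p = 0.478, edgeR) that depends on the prior count. The call ended with the donor as a block (p = 0.250), with no filter on low counts, with the Y-linked covariate (p = 0.0727) and without donor 1, 2, 3, 4, 5, 6 or 8, at fold changes of -3.07 to -2.46. Cox8b had 7 and 12 counts in the frontal cortex. The summed level of 7 skeletal muscle genes, among them Acta1 and Ckm, was 0 to 24.6 CPM pre-KD and 2.90 to 42.4 CPM post-KD in the hippocampus, with a lower median pre-KD. In the frontal cortex it was 5.03 to 28.1 and 3.68 to 31.7 CPM, and 2 of 4 tested genes of the list were lower post-KD at unadjusted p. The part of muscle RNA in these counts was not tested. Fold changes of the other isoforms were 1.07 ± 0.99 and 0.58 ± 0.75 for Cox6a2, -0.76 ± 1.25 and 1.19 ± 1.04 for Cox7a1, 0.22 ± 1.22 and 0.51 ± 0.90 for Cox6b2, and 0.24 ± 1.39 and -0.02 ± 1.21 for Cox7b2 in the hippocampus and the frontal cortex. None passed, and SEs of 0.75 or more leave a doubling undetectable at this depth.

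The ubiquitous partners had narrow intervals. Fold changes in the hippocampus and the frontal cortex were 0.12 ± 0.14 and 0.07 ± 0.11 for Cox4i1, 0.06 ± 0.13 and 0.06 ± 0.10 for Cox6a1, and -0.08 ± 0.15 and 0.02 ± 0.12 for Cox6b1. They were 0.12 ± 0.16 and 0.04 ± 0.13 for Cox7a2, 0.01 ± 0.17 and -0.02 ± 0.14 for Cox7b, and 0.08 ± 0.14 and 0.18 ± 0.11 for Cox8a. Cox6c, which has no alternative form, was at 0.06 ± 0.13 and -0.05 ± 0.10. None of these passed, and the 95% interval of Cox6a1 ran from -0.19 to 0.31 in hippocampus and from -0.13 to 0.25 in frontal cortex. Cox5a, a subunit on the matrix side, is named after its values were seen, at -0.11 ± 0.18 and 0.25 ± 0.13 (p = 0.0553 in the frontal cortex, where it was higher post-KD in 9 of 10 donors). It passed there at unadjusted p in 3 of 17 alternatives, DESeq2 (p = 0.0210), filterByExpr and leaving out donor 5, at 0.25 to 0.29, and at adjusted p in none. Cox7a2l, which by sequence belongs to the Cox7a family and is known as a factor of supercomplex assembly, had -0.19 ± 0.21 and -0.03 ± 0.15.

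In complex V, Atp5o, which encodes the oligomycin-sensitivity protein that ties the peripheral stalk to the catalytic head, passed at unadjusted p in both regions and in opposite directions. In the hippocampus its levels were 258 (188 to 336) CPM pre-KD and 201 (128 to 258) CPM post-KD. In the frontal cortex they were 209 (131 to 289) CPM pre-KD and 241 (206 to 332) CPM post-KD. Post-KD libraries were thus on the low side in one region and on the high side in the other, with overlapping groups: Atp5o was lower post-KD for 8 of 10 donors in hippocampus and higher for 8 of 10 in frontal cortex. The log2 fold change was -0.40 ± 0.16 in the hippocampus (p = 0.0157, adjusted p = 0.224, edgeR) and 0.25 ± 0.13 in the frontal cortex (p = 0.0463, adjusted p = 0.495). The hippocampal call ended without donor 5 or 7 (both -0.31) and the cortical one without donor 4, 5, 6, 7 or 8 (0.17 to 0.26) and without a filter on low counts (p = 0.0526).

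Whether the post-KD change differed between regions was tested in a fit of all 40 libraries that held the cohort as a term. Atp5o was the only member of 47 tested at unadjusted p under 0.05 in that edgeR fit (2.22% of all genes, and 3.21% of genes with at least 20 counts), with a log2 difference of -0.66 ± 0.21 (p = 0.00186). It did not pass adjustment over all genes (adjusted p = 1), which 0.0154% of genes did. The direction and the unadjusted call held in all 14 alternatives, at -0.80 to -0.48. DESeq2 gave 2 members at unadjusted p (4.89% of all genes) and 0 at adjusted p. Striatal genes moved with this contrast: 4 of 6 tested passed at unadjusted p with the sign of Atp5o, and their summed level was 79.2 to 295 CPM pre-KD and 33.0 to 209 CPM post-KD in the hippocampus and 500.2 to 1032 and 715 to 1103 CPM in the frontal cortex. Of the blood genes 2 of 4 tested, Hba-a1 (-0.38 ± 0.18) and Hbb-bs (-0.39 ± 0.18), and of 5 endothelial genes Cldn5 (-2.87 ± 1.38) also passed at unadjusted p with that sign. The 4 blood genes split into 2 above 0 (highest 0.68) and 2 below, and the 5 endothelial genes into 1 above and 4 below. The part of these lists in the Atp5o difference was not tested. Without the 9 libraries with Y-linked counts 1 member passed at unadjusted p (2.13% of all genes) and 0 at adjusted p. Of the windows of 69 bases in Atp5o transcripts, 35.7% also occur in other annotated genes, the largest share with a single gene being that with the antisense gene Gm15976 (14.5%). Reads from that stretch could be told apart only by strand, and the strand setting of the counting is not given in the sources used here. The gene lies on chromosome 16 (91925214 to 91931687, GRCm38, minus strand), and the NRF1 match of the promoter printed above starts 9 bases after its start.

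**Figure D4:**
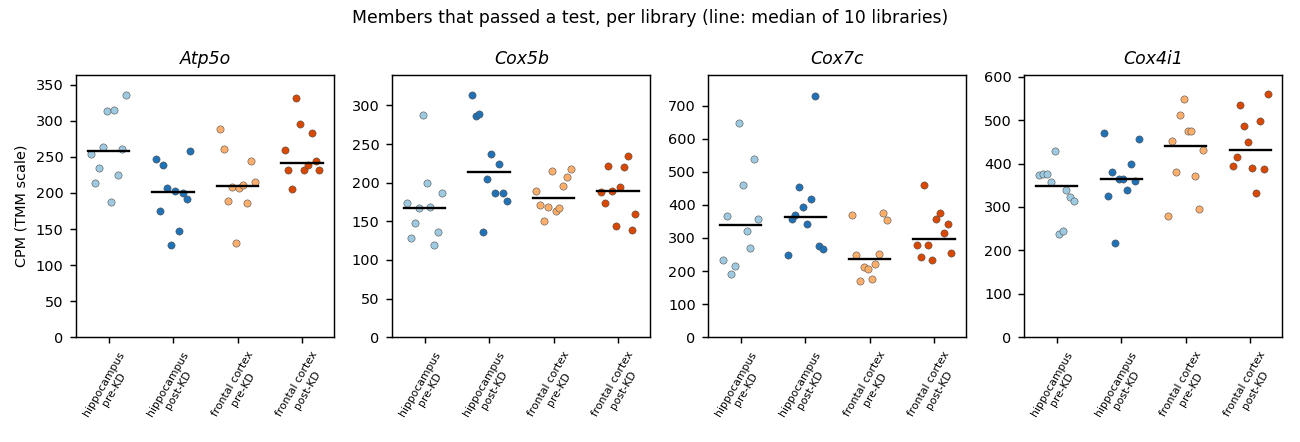
CPM of Atp5o, Cox5b, Cox7c and Cox4i1 in every library. Points are the libraries of donors 1 to 10 from left to right within a group and lines are medians. Median Atp5o is 258 and 201 CPM pre-KD and post-KD in hippocampus and 209 and 241 CPM in frontal cortex, and Cox4i1 medians are lower in both hippocampal groups than in both cortical groups.

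The c subunit of ATP synthase, whose ring turns with the proton flow, is encoded by 3 genes with the same mature protein, and Atp5g3 gave most of its counts. Its share was 89.6% in the hippocampus (80.5% to 94.1% over 20 libraries) and 89.3% in the frontal cortex (78.6% to 98.0%). Atp5g1 gave 10.1% and 10.5%, and Atp5g2 0.353% and 0.200%. Fold changes were 0.08 ± 0.14 and 0.13 ± 0.12 for Atp5g3, and -0.08 ± 0.32 and 0.47 ± 0.27 (p = 0.0811) for Atp5g1, whose levels were 43.0 (10.9 to 83.3) CPM pre-KD and 55.7 (17.4 to 116) CPM post-KD in the frontal cortex. Atp5g2, with 90 counts in all, had 0.32 ± 1.47 and -2.28 ± 1.36. None of the 3 genes passed. In the frontal cortex Atp5g1 did at unadjusted p in 3 of 17 alternatives (0.56 to 0.69) and Atp5g2 in 1 of 16, without donor 2.

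The other members of complex V did not pass in either region. In the catalytic head, Atp5a1 and Atp5b encode the alpha and beta subunits and had fold changes of -0.11 ± 0.13 and -0.08 ± 0.15 in the hippocampus and 0.08 ± 0.10 and 0.12 ± 0.11 in the frontal cortex. The central stalk genes Atp5c1, Atp5d and Atp5e lay between -0.21 and 0.16 over both regions. Of the peripheral stalk, Atp5f1, Atp5h and Atp5j lay between -0.26 and 0.06. Of the membrane subunits, Atp5j2 (subunit f) came nearest to the threshold, at 0.30 ± 0.16 in the hippocampus (p = 0.0524) and -0.03 ± 0.11 in the frontal cortex, with levels of 261 (187 to 411) CPM pre-KD and 348 (248 to 504) CPM post-KD in the hippocampus. It passed at unadjusted p in 10 of 17 alternatives, DESeq2 and the donor block (0.32 ± 0.16, p = 0.0450, adjusted p = 1) among them, and at adjusted p in none. It is named after its values were seen. Atp5k had 0.12 ± 0.14 and -0.06 ± 0.11. Atp5mpl, Atp5l and Atp5s lay between -0.04 and 0.73, the higher value for Atp5l with 104 counts pre-KD and 167 post-KD.

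Between regions, Cox7c was higher and Cox4i1 lower in the hippocampus than in the frontal cortex at adjusted p, in an edgeR fit over 40 libraries with a term for each cohort. These were 2 of 47 tested members, where 2.85% of all genes and 5.9% of those with at least 20 counts passed. At unadjusted p 6 members passed (10.9% of all genes, 17.3% of those with at least 20 counts), and Sdhb, Uqcrh, Cox7a2 and Cox7a2l were the others, all lower in the hippocampus. Log2 fold changes were above 0 for 16 of 47 members (37.3% of all genes), with a median of -0.08 against -0.17 over all genes. Over the genes with at least 20 counts the medians were -0.07 for the members and -0.08 for all. The regions were deposited as separate tables and dissected apart, and region and table cannot be told apart.

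Over the 20 libraries of a region, Cox7c levels were 357 (192 to 728) CPM in hippocampus and 267 (171 to 461) CPM in frontal cortex. It was higher in the hippocampus in 15 of 20 cohorts, with overlapping ranges and a highest library, post-KD of donor 8, at 728 CPM. The log2 fold change was 0.34 ± 0.09 (SE, adjusted p = 0.0140, edgeR). It passed at adjusted p in 12 of 18 alternatives. Without donor 2, 5, 6 or 8 it was 0.25 to 0.32 with adjusted p of 0.0622 to 0.248, and in pre-KD or post-KD libraries alone it was 0.43 and 0.26 (adjusted p = 0.131 and 0.601). Other annotated genes share 20.2% of its windows, most of them with Gm10012, and which copy the reads came from was not tested. Cox7c lies on chromosome 13 (86044816 to 86046904, GRCm38, minus strand).

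Cox4i1 levels were 361 (217 to 470.5) CPM in hippocampus and 439.9 (279 to 559) CPM in frontal cortex. It was lower in the hippocampus in 16 of 20 cohorts, and the ranges overlapped. The log2 fold change was -0.30 ± 0.09 (adjusted p = 0.0265). It passed at adjusted p in 9 of 18 alternatives and not with RLE size factors (-0.26, adjusted p = 0.0684), without donor 2, 4, 6, 7 or 10 (-0.30 to -0.24), in pre-KD (-0.31) or post-KD (-0.28) libraries alone, or without the libraries with Y-linked counts (-0.33, adjusted p = 0.0538). In that last fit Cox7c and Cox7a2 were the 2 members at adjusted p (Cox7a2 at -0.38, adjusted p = 0.0432). Cox4i1 lies on chromosome 8 (120668222 to 120674207, GRCm38, plus strand).

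The 4 members at unadjusted p alone were modest. Sdhb was at 130.3 (99.5 to 203) CPM in hippocampus and 165 (99.4 to 293) in frontal cortex, with -0.32 ± 0.13 (adjusted p = 0.228, edgeR). Uqcrh was at 289 (123 to 365) and 299 (176 to 409.8) CPM, with -0.24 ± 0.10. Cox7a2 was at 267 (134 to 425) and 324 (206 to 428) CPM (-0.24 ± 0.10) and Cox7a2l at 111 (51.4 to 174) and 127 (86.2 to 203) (-0.30 ± 0.14). The call of Cox7a2 ended without donor 5 (-0.17, p = 0.0936) or 7 (-0.19, p = 0.0613). That of Cox7a2l ended without donor 6 (-0.21, p = 0.138) and with RLE size factors (-0.27, p = 0.0508), and that of Uqcrh without the libraries with Y-linked counts (-0.21, p = 0.0657). In pre-KD libraries alone none of the 4 passed, and in post-KD libraries alone Sdhb did (-0.37, p = 0.0417). Without the libraries with Y-linked counts 5 members passed at unadjusted p, where 9.91% of all genes did. Each of the 4 was lower in the hippocampus in 15 or 16 of 20 cohorts, and the ranges of the regions overlapped. Ratios of the hippocampal to the cortical mean of summed CPM were 0.907 for complex II, 0.958 for complex III, 0.964 for complex IV and 0.998 for complex V, each within the spread between libraries. Of complex V none of 17 members passed at either threshold, with Atp5j nearest at 0.50 ± 0.25 (p = 0.0504). Atp5j and Atp5e each passed at unadjusted p in 6 of 18 alternatives, DESeq2 and RLE size factors among them, higher in the hippocampus, and at adjusted p in none. In complex II all 4 fold changes were below 0, from -0.32 (Sdhb) to -0.03 (Sdha).

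Markers of neighbouring structures and of neurons differed between the regions. The summed level of 7 choroid plexus genes, led by Ttr, was 498 to 4336 CPM in hippocampal and 7.85 to 595 CPM in cortical libraries, and 4 of the 7 passed at adjusted p, all higher in the hippocampus. That of 7 striatal genes, such as Penk, was 33.0 to 295 CPM in hippocampal and 500.2 to 1103 CPM in cortical libraries, and all 6 of the genes tested passed, lower in the hippocampus. Of 8 neuronal genes, 2 passed at adjusted p, Rbfox3 and Nefm, both lower in the hippocampus, as did Gad1 and Gad2 of 6 inhibitory neuron genes. No gene of the astrocyte list (6 genes), the oligodendrocyte list (7), the microglial list (7), the endothelial list (5), the blood list (5) or the muscle list (7) passed at adjusted p between regions, where 1, 5, 1, 3, 3 and 0 of their genes passed at unadjusted p. The part of these cells in the region differences of Cox7c and Cox4i1 was not tested.

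Genes that serve the complexes but are not subunits were described as lists. Of 35 assembly factors for complexes II to V, 34 were tested in each region and none passed at adjusted p. At unadjusted p, Coa3, a complex IV factor, was lower post-KD in the hippocampus (-0.67 ± 0.32, p = 0.0408), and in the frontal cortex the complex III factor Uqcc1 was lower (-0.78 ± 0.33, p = 0.0219) and the complex IV factor Coa5 higher (0.76 ± 0.28, p = 0.00821). Of 7 genes for cytochrome c and the carriers and pores of the inner and outer membrane, none passed at unadjusted p in either region. None of 11 regulators passed post-KD, where Ppargc1a, the coactivator of mitochondrial biogenesis, had 0.03 ± 0.25 and -0.17 ± 0.20. Between regions its relative Ppargc1b was lower in the hippocampus (-0.80 ± 0.25, adjusted p = 0.0429, edgeR), at 41.3 (0.727 to 79.2) CPM pre-KD and 47.1 (1.61 to 74.4) CPM post-KD in the hippocampus against 54.0 (42.6 to 80.1) and 48.7 (30.6 to 94.3) CPM in the frontal cortex. Nrf1 and Gabpa, whose proteins bind the motifs counted above, were at medians of 8.20 and 5.09 CPM in hippocampal pre-KD libraries and did not pass in any comparison.

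Partner subunits encoded in mitochondrial DNA were counted unevenly. Of 6 such genes of complexes III to V, 3 were tested within a region. mt-Cytb, the cytochrome b of complex III, was higher post-KD at unadjusted p in both regions (0.13 ± 0.06, p = 0.0478, and 0.15 ± 0.06, p = 0.0116, edgeR) and mt-Co1 of complex IV in the frontal cortex (0.21 ± 0.08, p = 0.00749), none at adjusted p. In the hippocampus mt-Co2 was lower post-KD at unadjusted p (-3.37 ± 1.153, p = 0.00430, adjusted p = 0.0789, edgeR). It was at 0 in every post-KD library there and at most 7.501 CPM pre-KD, so that this fold change depends on the prior count. The nuclear partners of these complexes had medians of 0.02 (complex III) and 0.07 (complex IV) in hippocampus and 0.07 and 0.07 in frontal cortex.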

How the data were processed

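Paired-end reads of 69 bases were trimmed, aligned to mm10 with STAR 2.5.2a and counted per Ensembl gene with HTSeq 0.6.0 by the authors, who deposited 1 table of whole-number counts per region, 20 libraries each. FastQC 0.11.5 and SAMtools 1.3 are also named in the submitters' processing notes. The annotation release and the strand setting of the counting are not given in the sources used here. The methods name a TruSeq kit and the labels a QuantSeq 3′ kit, which bears on every value per kilobase. Reads that map to several genes are dropped by HTSeq's default counting, so members with processed copies can be undercounted, and whether the default was used is not given.

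The tables were joined on gene identifier. Of 47643 identifiers, 47224 matched GENCODE M21, which gave symbols, positions and exon lengths. Groups and donor numbers were taken from the sample labels. Tests were edgeR 4.0.16 quasi-likelihood fits (R 4.3.3) with TMM factors (0.876 to 1.09) on genes that had 10 counts or more in the libraries of a fit together, Benjamini-Hochberg adjusted over all genes tested, with thresholds of 0.05 on the unadjusted and the adjusted p. Within a region no block was used. The study names DESeq2, and the methods give no design formula. Region and region-by-condition fits had a term for each of 20 cohorts. SEs are the fold change divided by the root of the F statistic, and intervals are 95%. CPM and complex sums used TMM over 40 libraries and had no test. The scripts were tested on simulated data. Libraries of a group came from separate cohorts, each pooled, so p-values measure the spread between pools. The largest library held 2095352 counts, and the precision this gives stands in the intervals, which for a count of few reads cover counting error and library spread together.

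Named with values were all genes of complexes II and III, the complex IV isoform pairs, the c subunit genes, members past a threshold, and the 3 highest and 3 lowest members per kilobase. Members and lists were chosen with earlier results of these data known, and no list is independent support. Alternatives were DESeq2 1.42.0, RLE size factors, no filter, filterByExpr, the donor as a replicate block, a Y-linked covariate, pre-KD or post-KD libraries alone, and leaving out each donor. Leaving out the libraries whose Y-linked level was over 3 CPM was chosen after seeing the data. Same-numbered cohorts received stool of the same child. Their libraries did not deviate together within a region: the correlations of their deviations from group means ran from -0.0280 to 0.0299 in the hippocampus and from -0.0561 to 0.0313 in the frontal cortex, with 0 of 10 pairs over 0.1. Values with the donor as a block are given where they changed a call. Between the regions of a cohort, which share the mice, they ran from -0.0238 to 0.201, with 1 of 20 over 0.1.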

Additional observations from a re-analysis of the deposited data

Results flagged for a closer look

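The region difference of the post-KD change of Atp5o (-0.66 on the log2 scale) was flagged because the test of the difference between regions itself passed at unadjusted p, with an adjusted p of 1. Atp5o was 1 of 47 tested members to pass, where 2.22% of all genes did, so the count of members was near that share. Among 56 groups of 10 libraries in which the extreme library's gap was set against the range (Dixon's test, which chance alone passes in about 1 of 20 groups), 5 had a library far from the others. Complex III summed to 1061 CPM in the frontal cortical pre-KD library of donor 8, where the other 9 libraries lay between 1265 and 1459 CPM. Cox5b was at 288 CPM in the hippocampal pre-KD library of donor 5 (others 120 to 200 CPM). Cox7c was at 728 CPM in the hippocampal post-KD library of donor 8 (others 247 to 454 CPM). Cox8b was at 4.72 CPM in the frontal cortical pre-KD library of donor 8 (others at most 1.26 CPM) and at 3.96 CPM in the post-KD library of donor 4 (others at most 2.01 CPM), both of them a handful of counts.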

How the results depend on the processing

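No member called in a main fit changed its direction under any alternative, while members near 0 that were not called could. The ratios of summed CPM moved by less than the spread between libraries in all of their alternatives, namely total counts without TMM, without Gm42418 and without mitochondrial genes. Shares of all genes under the same fit follow in parentheses. The number of members at unadjusted p in the hippocampus was 3, and 5 with DESeq2 (3.42%), and ran from 1 to 4 when 1 donor was left out (9.44% to 10.2%). In the frontal cortex it was 2, and 7 without the libraries with Y-linked counts (9.21%), and ran from 0 (without donor 6 or 7) to 6 (without donor 9), with 8.92% to 9.74% of all genes. In the difference between regions of the post-KD change it was 1, and 2 with DESeq2 (4.89%), with a range of 1 to 3 (2.02% to 2.45%). Between regions it was 6, and 10 with DESeq2 (13.7%), with a range of 5 to 9 (9.69% to 11.2%). Members at adjusted p between regions were 2, 3 with DESeq2 (5.32%), 1 with RLE size factors (2.79%), and 0 in pre-KD (1.09%) or in post-KD libraries alone (1.41%), with a range of 0 (without donor 2 or 6) to 2 (2.34% to 2.9%). In the other 3 comparisons the range was 0 to 0. Fitting fewer libraries widens the intervals, and the cause of the other shifts was not tested. The replicate block, with donor as a term, gave 4 members at unadjusted p in hippocampus (1.99%) and 2 in frontal cortex (3.07%), and without a replicate block the region fits gave 8 at unadjusted (19%) and 2 at adjusted p (10.8%) and the interaction 1 at unadjusted p (9.1%). The block ended the hippocampal call of Cox8b, added Uqcrb and Atp5j2 there, and changed no other call within a region. The median region difference over all genes was -0.17, -0.07 with DESeq2 and -0.01 without the cohort term.

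The depth of 1140756 to 2095352 counts per library leaves 11 members under a mean of 20 counts, and for the 9 of these that were tested within a region a doubling or a halving lay within the interval of either region. Each library is a pool, animals cannot be told apart, and no member passed adjustment between conditions, which does not show that levels were equal. Shared sequence and unknown strand limit Atp5o, Cox7c, Atp5l and Atp5g2.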
